A study of Mus musculus with 8 samples.

Results

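Pericytes of mouse inguinal white fat were taken from single-cell counts of the stromal vascular fraction, the cells that remain when digested fat has been freed of floating adipocytes. A pericyte was chosen by 4 genes read together. A cell had to hold at least 4 unique molecular identifiers (UMIs, each standing for 1 captured transcript) of Rgs5, Kcnj8, Abcc9 and Notch3 in sum, with at least 1 of them from Kcnj8 or Abcc9. It also had to hold at most 2 UMIs of Myh11, the smooth muscle myosin heavy chain, and none of Pdgfra (adipocyte progenitors), Ptprc (leukocytes) or Pecam1 (endothelial cells). The rule found 556 pericytes among 36370 kept cells, which held 2412874 UMIs. Because these 8 genes selected the cells, and marker values of the same cells had been seen when the rule was written, levels that set pericytes apart from other cells are given as a description.

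The study compared mice (C57BL/6 by the labels, C57BL/6J by the study's methods) fed ad libitum (Ad-Lib) with mice on twice-a-night (TAN) feeding, which had food only in set windows of the night. Each group had 4 libraries, Ad-Lib replicates 1, 3, 5 and 7 and TAN replicates 2, 4, 6 and 8, made by 10x Genomics 3′ droplet capture from collagenase-digested inguinal fat after lysis of red cells. The labels give an age of 8 weeks for both groups, whereas the study describes older mice after long-term feeding, so the age is not certain. The labels do not say whether each library came from 1 animal or from a pool, so the p-values measure the spread between these libraries.

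Pericytes are mural cells embedded in the basement membrane of capillaries and small venules. They are held to the endothelium by PDGF-B acting on PDGF receptor beta, adjust capillary tone through potassium and calcium channels, and lay down matrix together with the endothelium. In white fat they lie on the dense capillary bed around the adipocytes, next to the adipocyte progenitors, and share many genes with vascular smooth muscle cells.

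Total counts per library ran from 25320800 to 37140950 UMIs, and 3717 to 5654 cells per library were kept. The median mitochondrial share of all kept cells averaged 2.08% ± 0.26 (Ad-Lib) and 3.05% ± 0.44 (TAN) over 4 libraries of each group (mean ± SD, two-sided exact permutation test, p = 0.0286, the smallest p that 4 against 4 libraries can give). Within pericytes it was 2.67% ± 0.32 and 3.42% ± 0.72 (p = 0.143, same exact test), and the median depth was 3995 ± 583 and 4419 ± 403 UMIs per pericyte (p = 0.229, same exact test). Libraries shared 252 cell barcodes, of which 4 belonged to pericytes and none to pericytes of both libraries. Doublets were not removed, and 5 pericytes held over 15000 UMIs.

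Kcnj8 and Abcc9 encode the pore and the sulfonylurea receptor subunit of the vascular ATP-sensitive potassium channel, which couples the energy state of a mural cell to its membrane potential. They are near neighbours on chromosome 6, and their promoter windows, the 250 bases before the annotated start, are shown because this gene pair chose the pericytes. Both lie on the minus strand of GRCm38.p6, at chr6:142571615-142571864 for Kcnj8 and chr6:142702275-142702524 for Abcc9, and are printed 5′ to 3′ from RefSeq.
Kcnj8: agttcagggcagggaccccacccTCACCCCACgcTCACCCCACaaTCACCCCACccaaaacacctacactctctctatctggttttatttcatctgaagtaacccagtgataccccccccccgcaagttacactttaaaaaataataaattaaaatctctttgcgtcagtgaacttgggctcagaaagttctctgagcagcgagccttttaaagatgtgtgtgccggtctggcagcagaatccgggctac
Abcc9: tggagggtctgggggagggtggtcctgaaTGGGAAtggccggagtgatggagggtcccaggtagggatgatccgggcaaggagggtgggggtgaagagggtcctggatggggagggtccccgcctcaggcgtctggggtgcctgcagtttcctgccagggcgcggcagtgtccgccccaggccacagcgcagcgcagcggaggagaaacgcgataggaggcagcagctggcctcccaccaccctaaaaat
Capitals mark matches, on either strand, to TCACCCCAC, the core of a sterol regulatory element, and to TGGGAA, the core recognised by RBPJ, the DNA-binding partner of Notch receptors. The Kcnj8 window held 3 matches to TCACCCCAC, set in a row, and the Abcc9 window held 1 match to TGGGAA. Of 32851 promoter windows of the same length, 163 (0.496%) held TCACCCCAC and 7094 (21.6%) held TGGGAA. The windows of Rgs5 and Notch3 held neither. A match describes the letters in the window and not a bound site.

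Each of the 4 genes that chose the cells was present in most of them. Abcc9 had a UMI in 527 of the 556 pericytes (94.8%), Rgs5, a regulator of G-protein signalling, in 526 (94.6%), and Kcnj8 and the receptor gene Notch3 in 446 each (80.2%). Mean levels in CPM (a gene's UMIs per 1000000 UMIs of the summed pericytes of a library) were 4764 for Rgs5, 1202 for Abcc9, 997 for Kcnj8 and 886 for Notch3. The smooth muscle class had 3508 CPM of Rgs5 and 1041 CPM of Notch3, so that Kcnj8 (207 CPM) and Abcc9 (361 CPM) separated it most from the pericytes among these 4 genes. Kcnj8 was at 919, 857, 701 and 910 CPM in Ad-Lib 1, 3, 5 and 7 and at 1147, 1262, 1228 and 951 CPM in TAN 2, 4, 6 and 8. These values are a description, with no test and no comparison of the feeding groups, because this gene selected the cells.

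The label was checked against 28 pericyte identity genes that the rule did not use, and these were at a high level in every library. Their summed level was 11070 to 13290 CPM in pericytes, 7911 to 10660 CPM in vascular smooth muscle cells (194 cells with at least 3 Myh11 UMIs and 1 Acta2 UMI), 513 to 698 CPM in endothelial cells (4878 cells with Pecam1 and Cdh5) and 2325 to 2863 CPM in adipocyte progenitors (6596 cells with at least 2 Pdgfra UMIs). Higd1b, a mitochondrial protein gene much used as a pericyte marker, was at 408 ± 78.8 CPM in pericytes (SD, n = 8 libraries), 249 CPM in smooth muscle cells and 1.08 CPM in endothelial cells. It had a UMI in 62.4% of pericytes and in 0.0576% of B cells, a class that should lack it and had a median depth of 3685 UMIs in Ad-Lib and 3515 UMIs in TAN libraries. Pdgfrb, the receptor through which endothelial cells recruit pericytes, was at 968 ± 98.1 CPM and in 79.9% of pericytes, against 534 CPM in smooth muscle cells and 0.288% of B cells. Cox4i2, a respiratory chain subunit isoform, Vtn (vitronectin), Cspg4 (the NG2 proteoglycan) and Ndufa4l2 were at 445, 446, 251 and 867 CPM in pericytes and between 0.593 and 2.27 CPM in endothelial cells. All of these genes were also well above the endothelial level in smooth muscle cells, so they mark mural cells as a whole.

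**Figure D1:**
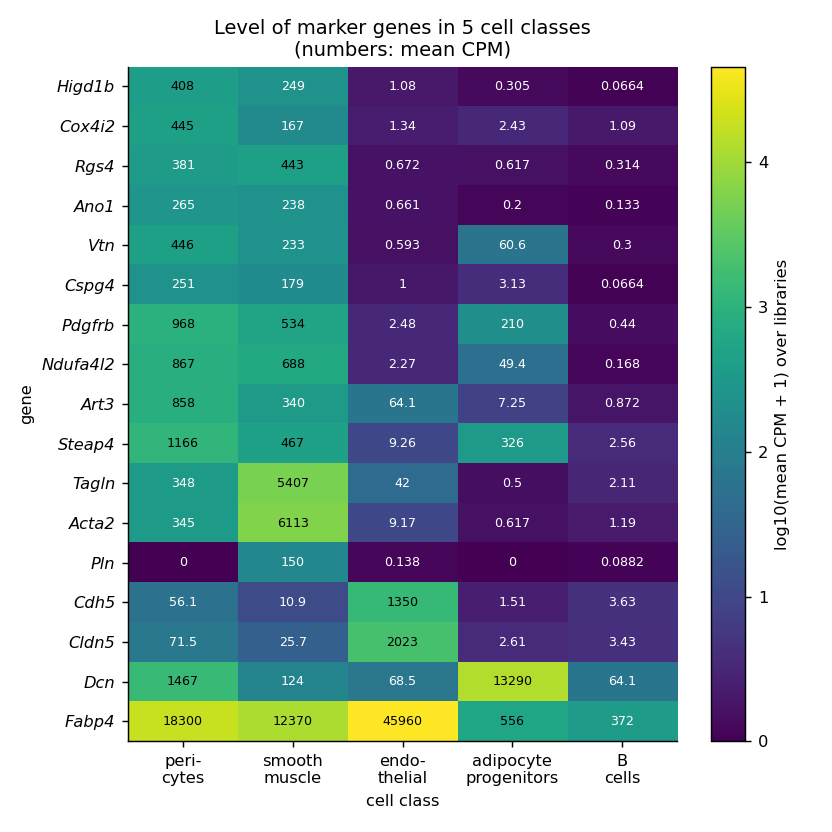
Heat map of the mean level of 17 genes (rows) in 5 cell classes (columns), with colour as log10 of the mean CPM + 1 over libraries and the mean CPM written in each cell. Higd1b, Cox4i2, Vtn and Pdgfrb are high in pericytes and smooth muscle cells, while Tagln and Acta2 are higher in smooth muscle cells (5407 and 6113 CPM) than in pericytes (348 and 345 CPM).

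Genes of other cell types were present, below their level in those cells. The 12 endothelial marker genes summed to 787 to 1289 CPM in pericytes, 12340 to 13870 CPM in endothelial cells and 298 to 435 CPM in smooth muscle cells. Progenitor markers (11 genes) summed to 2805 to 7473 CPM in Ad-Lib and 1780 to 5752 CPM in TAN pericytes, against 37410 to 45780 CPM in progenitors themselves, 1236 to 3802 CPM in smooth muscle cells, 1026 to 1444 CPM in endothelial cells and 404.5 to 786 CPM in B cells. The pericytes thus held more progenitor marker RNA than endothelial cells and B cells in every library. Of the 14 immune genes Cd3d and Trbc2 had no UMI in any pericyte. The others had UMIs, among them Cd74 in 11.5% of pericytes with up to 64 in 1 cell. Of 12 cycling genes 7 had no UMI, among them Mki67 and Cdk1. The cycling list still summed to 428 (Ad-Lib) and 476 CPM (TAN) in pericytes. It summed to 380 and 499 CPM in smooth muscle cells, 365 and 445 CPM in endothelial cells and 354 and 381 CPM in progenitors. Of 28 genes of the contractile apparatus, Cnn1, Actg2, Myocd and Pln had no UMI in pericytes. For such a gene, 3 of the 2412874 pericyte UMIs is the level that a count of 0 allows, which covers counting error only.

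The edges of the rule were populated unevenly. Of 2981 kept cells with a sum of at least 4 over the marker genes, 1633 also had a Kcnj8 or Abcc9 UMI, and 1313 of those had at most 2 Myh11 UMIs. Pecam1 then removed 566, Pdgfra 197 and Ptprc 52, with overlaps, which left the 556. The droplets removed for Pecam1 had a median of 7384.5 UMIs, held a Cdh5 UMI in 89.05% and had 2298 CPM of Rgs5. Whether they were pericytes joined to endothelial cells or free endothelial RNA was not tested. Just inside the rule, 16 pericytes with a sum of 4 had a median of 1391.5 UMIs and 531 CPM of Rgs5, and just outside it 25 cells with a sum of 3 had 1420 UMIs and 270 CPM. The other 540 pericytes had a median of 4254.5 UMIs, so the lower edge was drawn through shallow cells. At the Myh11 edge, Acta2 (smooth muscle actin) was at 209 CPM in the 281 pericytes without a Myh11 UMI, 498 CPM in the 275 with 1 or 2, and 810 CPM in the 60 cells just outside with 3.

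Compared with all other kept cells, and as a description only, the genes with the highest ratio of mean CPM included ion channel, respiratory chain and receptor genes. At 50 CPM or more, 9330188P03Rik (ratio 83.7), the class Ib histocompatibility gene H2-M9 (79.0), Tmem273 (64.6) and Gipr (59.8) led, beside Kcnj8 of the rule. Gipr, the receptor for the gut hormone GIP, was at 54.3 CPM with a UMI in 19.4% of pericytes. Cox4i2 stood at a ratio of 46.5, Higd1b at 43.5 and Ano1, a calcium-activated chloride channel, at 42.6. Ano1 was at 265 CPM and in 50.4% of pericytes. Other genes among the leading 20 were Lin7a, Dlk1, Slc4a11, Stac, Adgrl3, Rgs4, Abcc9, Vstm4, Ephx3, Pappa2 and Chn1, with ratios of 35.5 to 49.4. Dlk1 and Pappa2 were high in few cells (5.58% and 1.80% of pericytes) and peaked in Ad-Lib 5, at 178 and 273 CPM.

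Most genes varied between pericytes little more than counting alone gives. Over 7783 genes the median ratio of the variance to the Poisson value expected from depth was 1.04. The most variable gene was Dcn, the matrix proteoglycan decorin (83.6), followed by Gm42418, which overlaps ribosomal RNA sequence (71.7), the nuclear RNA Malat1 (47.1), Ctla2a (30.5) and the fatty acid binding protein gene Fabp4 (26.8). Car3, Cfd, Mt1, Fos, Jun, Mgp, Tagln, Junb, Col1a2 and Rgs5 followed, at 18.9 to 11.4. Matrix genes, genes abundant in adipocytes and the immediate early genes Fos, Jun and Junb were thus among the widest spread. Fabp4 was nearly universal, at 18300 CPM and in 98.6% of pericytes, and was at 372 CPM in B cells with a UMI in 31.7% of them.

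Dcn split the pericytes unequally. It had a UMI in 100 pericytes (18.0%) and in 10.9% of B cells, and 16 pericytes with at least 10 Dcn UMIs held 96.5% of all Dcn UMIs. These 16 pericytes had 601 CPM of Rgs5, 351 CPM of Kcnj8 and 1115 CPM of Fabp4. Pericytes without Dcn had 4924 CPM of Rgs5, 1031 CPM of Kcnj8 and 19230 CPM of Fabp4. The collagen gene Col1a1 went the other way, at 2574 CPM in the 16 and 92.9 CPM in pericytes without Dcn. The 16 fell in 7 of 8 libraries, with 3, 1, 3 and 1 in Ad-Lib 1, 3, 5 and 7 and 1, 0, 2 and 5 in TAN 2, 4, 6 and 8. They met the rule with low pericyte markers and high progenitor matrix genes, so the feeding result is also given below without any pericyte that held Dcn.

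The first comparison asked whether TAN feeding changed how many pericytes were recovered. Pericytes made up 2.31%, 1.76%, 1.11% and 1.75% of kept cells in Ad-Lib 1, 3, 5 and 7 and 1.62%, 1.40%, 0.761% and 1.58% in TAN 2, 4, 6 and 8. The ranges overlapped, with Ad-Lib 1 highest (95% exact binomial interval 1.92% to 2.76%) and TAN 6 lowest (0.551% to 1.02%). The means were 1.73% ± 0.49 and 1.34% ± 0.40 (SD, n = 4 each), a difference of -0.391 percentage points that did not exceed the spread between libraries (p = 0.286, two-sided exact permutation test). The difference was -0.197 points without Ad-Lib 1, -0.197 without TAN 6 and -0.599 without Ad-Lib 5 (p = 0.0571, exact permutation test).

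Scaled to the vessel, the count was 18.9, 15.3, 6.74 and 12.7 pericytes per 100 endothelial cells in the Ad-Lib libraries and 8.09, 10.2, 8.40 and 12.5 in the TAN libraries. Ad-Lib 5 lay below every TAN library and the groups overlapped (13.4 ± 5.12 against 9.79 ± 2.02, a difference of -3.63, p = 0.257, exact permutation test). That difference was -1.80 without Ad-Lib 1, -5.85 without Ad-Lib 5 (p = 0.0571, exact permutation test) and -10.3 when Pecam1, Pdgfra and Ptprc were not used for the choice (p = 0.0857, exact permutation test). Of all mural cells, pericytes were 79.3%, 74.8%, 63.6% and 59.1% in Ad-Lib and 75.3%, 80.2%, 86.0% and 77.5% in TAN libraries. That share was 69.2% ± 9.43 and 79.8% ± 4.64 (p = 0.114, exact permutation test), and without Ad-Lib 1 it differed by 13.9 points (p = 0.0286, the smallest the 35 assignments allow). Its denominator includes the smooth muscle cells, which numbered 31, 29, 24 and 45 in Ad-Lib and 23, 17, 7 and 18 in TAN libraries (32.3 ± 9.0 against 16.3 ± 6.7, p = 0.0286, exact permutation test). When every cell was thinned to 2000 UMIs, which left out 3028 Ad-Lib and 4096 TAN cells, 2.38% and 1.98% of the cells met the rule (p = 0.343, exact permutation test). Thinning also removes UMIs of the excluding genes. The rule was then met by 640 cells, beside 427 pericytes with at least 2000 UMIs before thinning, so these are not the same cells.

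**Figure D2:**
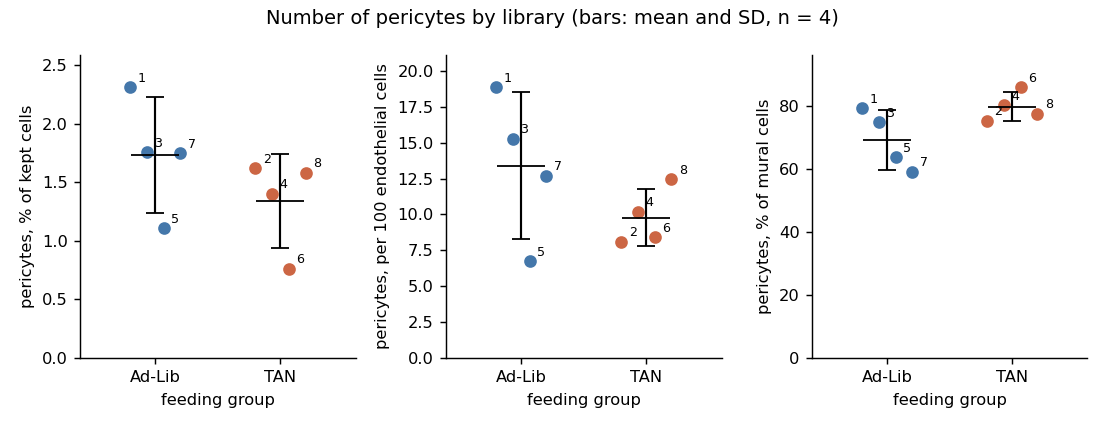
Pericytes per library in 3 panels, as percent of kept cells, per 100 endothelial cells and as percent of mural cells, with points for the 4 Ad-Lib and 4 TAN libraries and bars for mean ± SD. The groups overlap in all 3 panels, and the mural panel (69.2% against 79.8%) has the smallest p of the 3 (p = 0.114, exact permutation test).

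The next comparison set pericytes against vascular smooth muscle cells of the same libraries, the class closest to them. TAN 6 had 7 smooth muscle cells and was left out, so 7 libraries were compared in pairs with edgeR, with the library as a block. Of 3518 genes tested, 344 (9.78%) were higher and 336 (9.55%) lower in pericytes at an adjusted p under 0.05 and at least 1.5-fold. Because Myh11, Acta2 and the Kcnj8 and Abcc9 genes defined the classes and 97 of the 194 smooth muscle cells would meet the 4 pericyte markers, these counts come from the contrast that chose the cells and the fold changes below are descriptions. The median log2 change over all tested genes was 0.03.

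Contractile genes were mostly lower. Of 22 tested, 20 were lower, none higher, with a median log2 change of -1.83. Acta2 was at 345 CPM in pericytes and 6113 CPM in smooth muscle cells (log2 change -4.15 ± 0.12, SE), a class it helped to define. Tagln (transgelin) was at 348 and 5407 CPM (-3.97 ± 0.12) and Myl9 (myosin regulatory light chain) at 623 and 2018 CPM (-1.74 ± 0.11). Cald1 (caldesmon) differed least of these, at 1011 and 1649 CPM (-0.73 ± 0.08). The rest of the genes furthest below the smooth muscle level, at log2 changes of -4.75 to -6.33, were Map3k7cl, Slc38a11, Rgs7bp, Olfml2a, Nrip2, Sorbs2, Fbxl22, Tesc and Mustn1. Rergl had no UMI in any pericyte and was at 90.2 CPM in smooth muscle cells.

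Receptors and enzymes that set vessel tone were divided, with 4 higher and 5 lower of 17. Ednrb, the endothelin B receptor, was at 299 ± 105 CPM in pericytes and 30.4 CPM in smooth muscle cells (log2 change 3.20 ± 0.23), while Ednra, the endothelin A receptor, was at 155 and 242 CPM (-0.67 ± 0.14). Agtr1a, the angiotensin II receptor, was at 265 and 72.1 CPM (1.71 ± 0.15). Ptgir, the prostacyclin receptor (1.28 ± 0.28), and Rgs3 (1.75 ± 0.26) were also higher. The neuropeptide Y receptor gene Npy1r was at 73.3 and 243 CPM (-1.73 ± 0.17), and the cyclic nucleotide enzymes Pde3a (-1.15 ± 0.13) and Prkg1 (-0.75 ± 0.16) and the co-receptor Ramp1 (-1.44 ± 0.41) were lower too. P2rx1, the ATP-gated channel of smooth muscle, had no UMI in pericytes and was at 112 CPM in smooth muscle cells. The endothelin receptors had estimates of opposite sign, in 7 of 7 libraries each. In pericytes without Dcn, Ednrb, Agtr1a and Ptgir were still higher, and Pde3a, Prkg1 and Npy1r still lower. Ednra no longer reached 1.5-fold there (-0.56 ± 0.13, adjusted p = 0.00166, edgeR), and Rgs3 and Ramp1 had too few counts to be tested.

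Of 13 ion channel and transporter genes, 5 were higher and 3 lower. Slc12a2, the sodium-potassium-chloride cotransporter NKCC1, was at 294 and 84.5 CPM (log2 change 1.71 ± 0.23), and Kcne4 (1.08 ± 0.21) and the taurine transporter gene Slc6a6 (0.90 ± 0.30) were higher. The calcium store genes Itpr1 (-0.84 ± 0.17) and Atp2a2 (-1.11 ± 0.13) and the potassium channel gene Kcnk3 (-1.43 ± 0.24) were lower. The water channel gene Aqp1 was at 72.0 and 2.34 CPM (4.40 ± 0.43) and at 1831 CPM in endothelial cells, and had too few counts to be tested in pericytes without Dcn.

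Matrix genes were mostly higher in pericytes. Of 24 interstitial matrix genes 18 were higher and 3 lower. Col1a1, Col1a2 and Dcn were among those higher, and 70.6% of Col1a1 and 56.9% of Col1a2 UMIs were in pericytes that held Dcn. In pericytes without Dcn, compared after the data had been seen, 12 of 21 were higher and 3 lower, beside 308 and 316 of all 3040 genes tested. Col1a1, Col1a2, Col3a1, Bgn and Ogn were then not among the higher. Mgp, Postn and the 6 type V and type VI collagen genes tested still were. Mgp (matrix Gla protein) was at 1244 and 445 CPM (log2 change 1.57 ± 0.18) and Postn (periostin) at 1043 and 545 CPM (0.93 ± 0.14). Of 20 basement membrane genes 8 were higher and 4 lower, and the laminin chains parted. Lama2 (1.75 ± 0.29) and Lamb1 (1.23 ± 0.17) were higher, while Lama5 (-3.06 ± 0.30) and Lamb2 (-1.53 ± 0.14) were lower. Col4a1, a main chain of type IV collagen, was at 812 and 436 CPM (0.84 ± 0.10), Sparc at 5343 and 2780 CPM (0.88 ± 0.12) and its relative Sparcl1 at 768 and 2302 CPM (-1.63 ± 0.10).

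Of 19 genes in signalling between endothelium and pericytes 5 were higher and 2 lower. Pdgfrb was higher (log2 change 0.79 ± 0.09), as were the TGF-beta co-receptors Eng (1.04 ± 0.18) and Tgfbr3 (0.65 ± 0.14), while the ligand gene Pdgfa was lower (-1.18 ± 0.11). In pericytes without Dcn, Pdgfrb, Eng and Pdgfa still passed and Tgfbr3 did not (0.26 ± 0.16, adjusted p = 0.253, edgeR). In the Notch pathway Notch1 (0.74 ± 0.15) and the target gene Heyl (0.83 ± 0.20) were higher and the feedback inhibitor gene Nrarp was lower (-2.60 ± 0.24), out of 6 tested. The chemokine gene Cxcl12 was at 842 and 446 CPM (0.85 ± 0.12) and the cytokine gene Il34 at 249 and 156 CPM (0.63 ± 0.15). Of 14 interferon-induced genes 7 were higher and none lower. Of 27 pericyte identity genes 10 were higher and 1 lower. Against endothelial cells, however, Eng, Tgfbr3, Notch1 and Cxcl12 were lower in pericytes, while Pdgfrb, Heyl and Il34 were higher. Of the 7 interferon-induced genes Ifi27l2a, Bst2, H2-K1, H2-D1 and Psmb8 were lower than in endothelial cells. The part of endothelial RNA in the differences from smooth muscle cells was not tested.

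Several of the genes highest over smooth muscle cells belong to other cell types. Gpihbp1 (log2 change 2.92), Tspan13 (2.75), Emcn (2.68) and Cd300lg (2.49) were at 488 to 2576 CPM in endothelial cells, and 5 of 7 endothelial markers tested were higher in pericytes. Dcn (3.93) was the gene held by few pericytes, and Ly6a, like Dcn, had too few counts to be tested without them. Pdzd2 (2.57), Ly6a (2.30) and Tmem273 (2.29) completed the leading 10 with Aqp1 and Ednrb, and Tmem273 was at 0.313 CPM in endothelial cells. The endothelial marker sum was 787 to 1289 CPM in pericytes and 298 to 435 CPM in smooth muscle cells, and its part in these differences was not tested. For Ednrb, 19.8% of pericytes, 40.1% of endothelial cells and 1.15% of B cells had a UMI.

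**Figure D3:**
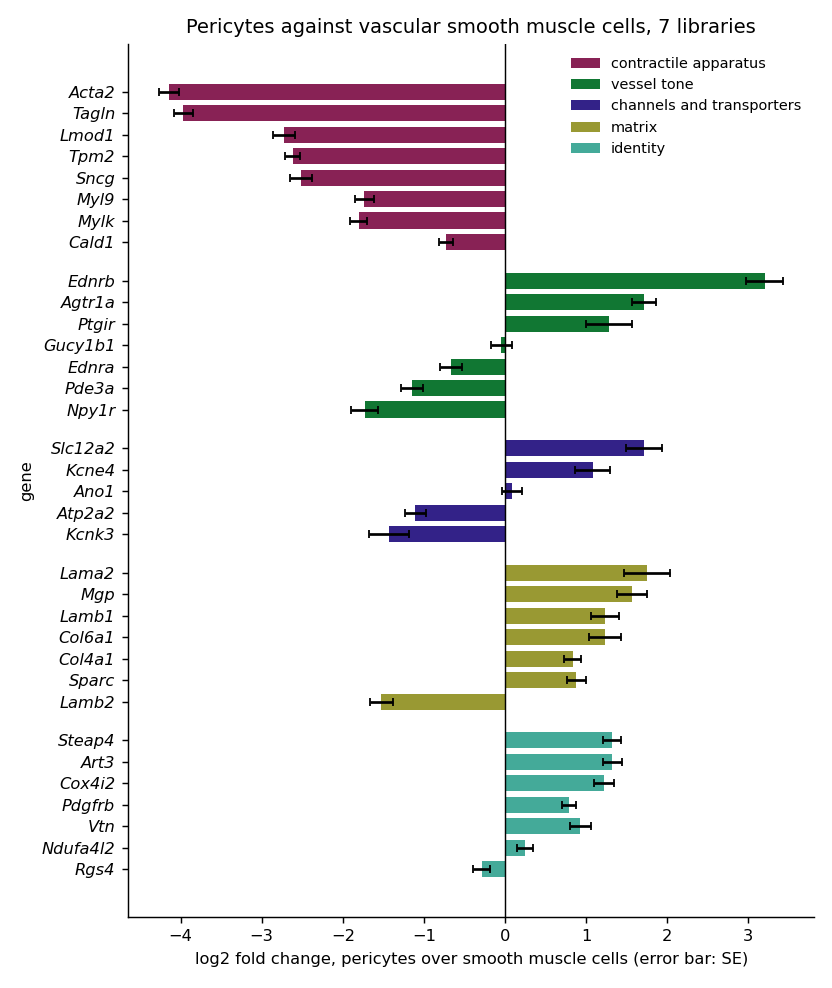
Bars give the log2 change of pericytes over vascular smooth muscle cells with its SE (7 libraries) for genes of 5 groups, which were picked as examples after their values were seen. Contractile genes lie below 0, while receptors, channels, matrix and identity genes lie on both sides, from Npy1r at -1.73 to Ednrb at 3.20.

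Against the more distant classes the differences were wider and rested on the same selection. Of 10044 genes tested against adipocyte progenitors, 1560 (15.5%) were higher and 2069 (20.6%) lower in pericytes. The gap junction gene Gja4 was at 232 CPM in pericytes and 0.0120 CPM in progenitors and led the list with H2-M9, Tmem273 and Stac (log2 changes of 10.34 to 12.11). Mmp3, a matrix metalloproteinase gene, was at 2.14 and 533 CPM (-8.49), followed by Tmeff2, Dmkn and Dclk1 (-7.26 to -7.87), and Mlana had no UMI in pericytes. Of 9341 genes tested against endothelial cells, 1739 (18.6%) were higher and 1917 (20.5%) lower. H2-M9, Vtn, Kcne4 and Rgs4 led the higher genes (8.98 to 9.62), and Dlk1, at 70.8 CPM in pericytes, had no UMI in endothelial cells. The genes furthest below the endothelial level were the globin genes Hba-a1, Hba-a2 and Hbb-bs with Fam181b and Sox7 (-5.66 to -6.38). The 4 erythrocyte markers summed to 708 to 6221 CPM in Ad-Lib and 69.6 to 6033 CPM in TAN endothelial cells. In progenitors they summed to 33.4 to 983 CPM over all libraries, so their level varied widely by library. The part of red cell RNA in the globin differences was not tested.

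The main question of the design was whether pericytes of TAN mice expressed genes at another level. Few genes passed. Of 4440 genes tested with edgeR's quasi-likelihood test, 6 (0.135%) passed (at least 1.5-fold, with a p below 0.05 after Benjamini-Hochberg adjustment), 3 higher and 3 lower in TAN. With a mitochondrial limit of 20% instead of 10%, 6 passed as higher and 1 as lower. At an unadjusted p under 0.05 there were 394, and the median log2 change over all genes was -0.00. Among those higher were Ccl11, a chemokine gene, and Fdps, a gene of the mevalonate pathway. Lower were Ifi27l2a, Lgals3 and Cfd, an interferon-induced gene, a galectin gene and the adipsin gene. A gene that passed was named only where all TAN values lay on the same side of the Ad-Lib values. Lack of overlap in the genes below was thus a condition of naming and adds no support. The number without overlap among all 4440 genes is not given here.

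Ccl11 encodes eotaxin, a chemokine that draws eosinophils (ENSMUSG00000020676, chr11:82057823-82062955 of GRCm38, plus strand). In pericytes it was at 130, 81.9, 63.7 and 63.9 CPM in Ad-Lib 1, 3, 5 and 7 and at 394, 490, 443 and 271 CPM in TAN 2, 4, 6 and 8. The lowest TAN library was above the highest Ad-Lib library. The means were 84.8 ± 31.1 and 400 ± 94.1 CPM (mean ± SD of 4), and the log2 change came to 2.10 ± 0.23 (SE, adjusted p = 0.000199, edgeR). It had a UMI in 63 Ad-Lib and 109 TAN pericytes, 30.9% of all, with at most 22 in 1 cell, against 1.44% of B cells. Of the pericyte Ccl11 UMIs 11.1% were in cells that held Dcn. Pericytes without Dcn gave 161, 92.9, 74.3 and 59.7 CPM in Ad-Lib and 414, 508, 470 and 260 CPM in TAN libraries, a change of 1.92 (adjusted p = 9.1e-07, edgeR). Ccl11 passed in 8 of 8 fits that left out 1 library. It did not pass among pericytes without a Myh11 UMI, where the log2 change was 1.88 (adjusted p = 0.432, edgeR).

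The level of Ccl11 in other cell classes did not move alike. Adipocyte progenitors, which had a Ccl11 UMI in 93.6% of cells, went from 724 to 769 CPM (log2 change 0.06 ± 0.08, adjusted p = 0.811, edgeR). Endothelial cells were at 5.10 and 4.76 CPM (-0.13 ± 0.36, adjusted p = 0.911, edgeR). Vascular smooth muscle cells were at 78.9 and 320 CPM (1.91 ± 0.45), a change of like size that did not pass (adjusted p = 0.133, edgeR, 7 libraries). The difference of the feeding effect between pericytes and endothelial cells was itself 2.33 ± 0.36 (adjusted p = 0.00107, edgeR interaction) and between pericytes and progenitors 2.10 ± 0.24 (adjusted p = 1.2e-05, edgeR interaction).

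Fdps encodes farnesyl diphosphate synthase, an enzyme of the mevalonate pathway that leads to cholesterol (ENSMUSG00000059743, chr3:89093588-89101959, minus strand). It was at 19.6, 26.3, 18.2 and 24.0 CPM in Ad-Lib and 52.6, 79.5, 102 and 54.2 CPM in TAN pericytes. The groups did not overlap. Fdps rose from 22.0 ± 3.76 to 72.1 ± 23.4 CPM (log2 change 1.61 ± 0.30, adjusted p = 0.0351, edgeR). It rested on few cells, with a UMI in 26 Ad-Lib and 54 TAN pericytes, and was in 14.4% of all pericytes and 4.61% of B cells. It passed in 2 of 8 fits without 1 library and not with DESeq2. In progenitors it was at 39.6 and 64.6 CPM (0.69 ± 0.23, adjusted p = 0.167, edgeR) and in endothelial cells at 17.9 and 20.7 CPM (0.26, adjusted p = 0.522, edgeR). The difference of the log2 changes from pericytes did not pass against endothelial cells (1.39, adjusted p = 0.109) or progenitors (0.93, adjusted p = 0.656) in the edgeR interaction test. The Ad-Lib smooth muscle cells had 17.7 ± 10.5 CPM (n = 4) and those of TAN 69.8 ± 36.0 CPM (n = 3, TAN 6 left out), values near those of pericytes, with too few counts to be tested. The rise is therefore not shown to be particular to pericytes.

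Further genes of the pathway were looked up after Fdps had been seen, so their values are no independent evidence. Srebf2, which encodes the transcription factor that switches on sterol genes, was at 19.5 and 62.9 CPM (log2 change 1.47, adjusted p = 0.113, edgeR), and Hmgcs1, which makes the HMG-CoA of the pathway, at 29.6 and 54.3 CPM (0.78, adjusted p = 0.384, edgeR). Neither passed. The promoter window of Hmgcs1 is shown because it places TCACCCCAC, the sterol element core, beside a pair of TGGGAA matches (written as TTCCCA on this strand). Of the 13 sterol genes whose windows were read, the other 12, Srebf2 among them, held no TCACCCCAC. The Hmgcs1 window lies at chr13:119690101-119690350 of GRCm38.p6, plus strand, and is printed 5′ to 3′ from RefSeq.
Hmgcs1: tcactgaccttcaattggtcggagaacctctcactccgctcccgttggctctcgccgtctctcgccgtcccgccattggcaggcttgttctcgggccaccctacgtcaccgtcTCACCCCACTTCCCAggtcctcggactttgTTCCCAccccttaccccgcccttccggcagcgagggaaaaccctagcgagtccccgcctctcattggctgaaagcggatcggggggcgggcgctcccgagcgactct
Capitals mark 1 match to TCACCCCAC and 2 to TTCCCA, and the first TTCCCA follows the sterol element directly. Windows of Fdps and Ccl11 were not used here.

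Ifi27l2a, an interferon-inducible gene (ENSMUSG00000079017, chr12:103442167-103443680, minus strand), was at 265, 322, 373 and 415 CPM in Ad-Lib and 102, 82.7, 219 and 159 CPM in TAN pericytes. The groups did not overlap. It fell from 344 ± 64.9 to 141 ± 61.6 CPM (log2 change -1.36 ± 0.22, adjusted p = 0.0232, edgeR) and passed in 5 of 8 fits without 1 library. It did not pass with a mitochondrial limit of 20% (-1.09) or without pericytes holding UMIs of 6 marker genes of other cell types (-1.28). It had a UMI in 32.7% of pericytes and 43.3% of B cells, so its share of cells does not mark pericytes. Endothelial cells showed a change of like size, from 545 to 183 CPM (-1.55 ± 0.13, adjusted p = 1.9e-05, edgeR), whereas progenitors were at 452 and 486 CPM. Smooth muscle cells were at 78.0 and 26.0 CPM (-1.56, adjusted p = 0.210, edgeR).

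Lgals3, which encodes galectin-3 (ENSMUSG00000050335, chr14:47367751-47386160, plus strand), was at 90.4, 38.0, 77.4 and 47.9 CPM in Ad-Lib and 6.57, 6.36, 30.6 and 7.23 CPM in TAN pericytes. TAN 6 lay apart from the other TAN libraries and still below the lowest Ad-Lib value. The change was -2.56 ± 0.46 on the log2 scale (adjusted p = 0.0332, edgeR), from 63.4 ± 24.5 to 12.7 ± 11.9 CPM, on 30 Ad-Lib and 10 TAN pericytes with a UMI. That is 7.19% of pericytes, near the 4.78% of B cells, and 79.0% of its UMIs were in the pericytes that also held Dcn. Among pericytes without Dcn it had too few counts to be tested and was at 18.8, 10.3, 6.76 and 21.7 CPM in Ad-Lib and 7.52, 3.51, 11.9 and 4.73 CPM in TAN libraries, which overlap. It passed in 2 of 8 fits without 1 library and not with DESeq2. The 14 immune markers summed to 81.9 to 460 CPM in Ad-Lib and 72.3 to 192 CPM in TAN pericytes, and their part in the result was not tested.

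Cfd, the adipsin gene secreted by adipocytes (ENSMUSG00000061780, chr10:79890853-79892655, plus strand), was at 446, 453, 546 and 459 CPM in Ad-Lib and 316, 267, 326 and 210 CPM in TAN pericytes. The groups did not overlap, and Ad-Lib 5 stood above the other Ad-Lib libraries. It fell from 476 ± 47.0 to 280 ± 53.2 CPM (log2 change -0.81 ± 0.15, adjusted p = 0.0414, edgeR), but passed in none of the 8 fits without 1 library, nor with a mitochondrial limit of 20% (-0.48) or without pericytes holding UMIs of 6 marker genes of other cell types (-0.39). It had a UMI in 34.2% of pericytes and 7.72% of B cells. The 10 adipocyte markers, Cfd among them, summed to 894 to 1484 CPM in Ad-Lib and 611 to 958 CPM in TAN pericytes, with Adipoq at 33.0 and 25.7 CPM and Plin1 at 11.9 and 10.6 CPM. Their part in the result was not tested. Cfd was at 753 and 733 CPM in endothelial cells and 104 and 81.8 CPM in B cells.

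The next genes by p did not pass and are given as values. Rbp7, a retinol-binding protein gene, was at 26.9 and 94.6 CPM (log2 change 1.73 ± 0.35, adjusted p = 0.0721, edgeR) in pericytes and rose in endothelial cells from 445 to 1000 CPM (1.18, adjusted p = 9.5e-05, edgeR). Cacybp (77.1 and 147 CPM), Jup (32.0 and 90.7 CPM) and Ttyh2 (32.6 and 79.6 CPM) had adjusted p-values of 0.0910, 0.102 and 0.111 in the same edgeR fit. Among pericytes without Dcn, a fit added after the data had been seen, 10 genes passed. Among these were Ccl11, Rbp7 and Thrsp (higher) and Ifi27l2a, Cfd, Olfml2b, Col1a1, Angptl4 and Ppp1r15a (lower), while Lgals3 and Fdps had too few counts there to be tested.

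**Figure D4:**
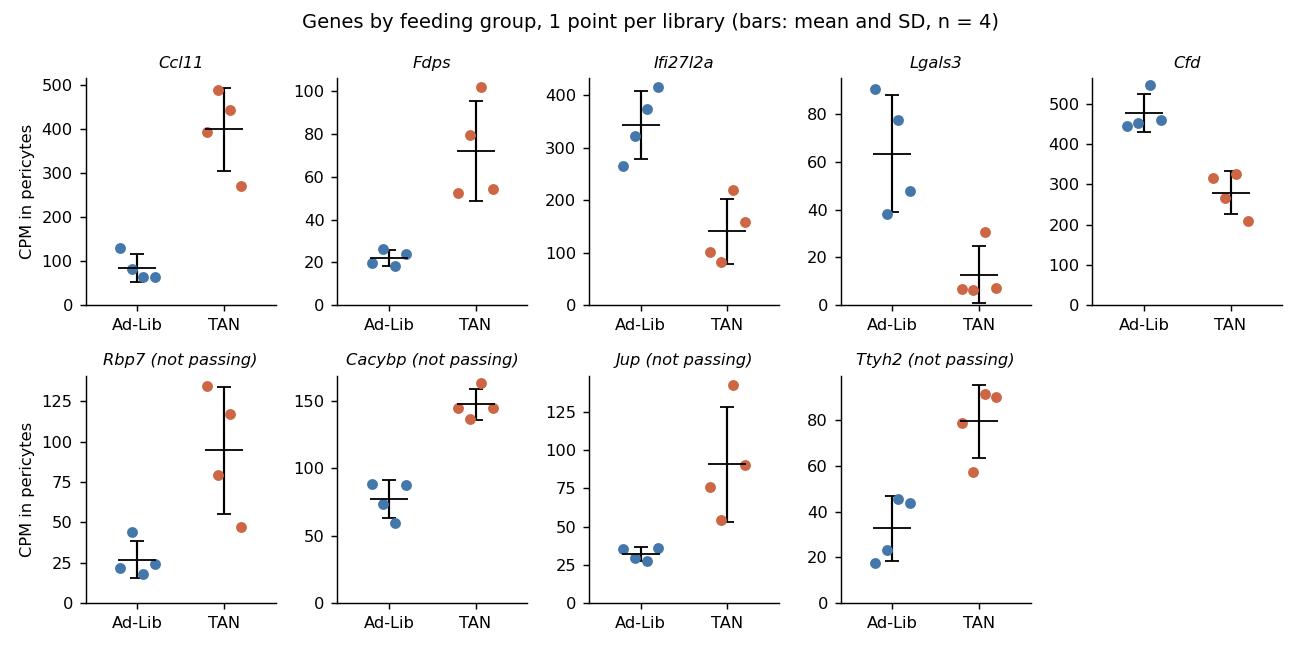
CPM of 9 genes in the pericytes of each library, with points for the 4 Ad-Lib and 4 TAN libraries and bars for mean ± SD. In all 9 genes no TAN point overlaps the Ad-Lib points. Ccl11, Fdps, Ifi27l2a, Lgals3 and Cfd passed, and lack of overlap was a condition for naming them. Rbp7, Cacybp, Jup and Ttyh2 did not pass.

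In the gene groups below few genes passed with feeding, although the estimates of some groups leaned one way. Estimates of the 20 contractile genes tested were all negative, between -0.73 and -0.01 on the log2 scale, with a median of -0.16, but none passed. Acta2 was at 421 ± 118 and 269 ± 123 CPM (log2 change -0.65, adjusted p = 0.410, edgeR). Of the 28 pericyte identity genes 18 had positive and 10 negative estimates, with a median of 0.03 and none passing. The 21 signalling genes between endothelium and pericytes (10 positive, 11 negative) and the 6 Notch genes (3 and 3) had medians of -0.00 and 0.05, and none passed.

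Receptors for vessel tone numbered 19, with 10 positive and 9 negative estimates, and none passed. S1pr3, a sphingosine-1-phosphate receptor gene, was at 157 ± 27.3 and 278 ± 43.9 CPM (log2 change 0.74 ± 0.17, adjusted p = 0.113, edgeR). Agtr1a was at 216 and 313 CPM (0.50, adjusted p = 0.279, edgeR) and Npy1r at 100.2 and 46.4 CPM (-1.08, adjusted p = 0.178, edgeR). No gene passed among 13 ion channel genes (median -0.08), 20 basement membrane genes (-0.04), 29 interstitial matrix genes (-0.08), 10 clock genes (0.05) and 10 hypoxia genes (0.15). Col1a1 was at 393 and 136 CPM (-1.55, adjusted p = 0.142, edgeR), and most of its UMIs were in pericytes that held Dcn. Among pericytes without Dcn it fell, from 99.2, 127, 142 and 147 CPM in Ad-Lib to 48.9, 63.1, 59.4 and 75.6 CPM in TAN libraries (-1.05 ± 0.24, adjusted p = 0.0329, edgeR), and these groups do not overlap. Of 10 chemokine, cytokine and adhesion genes only Ccl11 passed, while Cxcl12 was at 895 and 789 CPM (-0.22, adjusted p = 0.733, edgeR). Of 17 interferon-induced genes only Ifi27l2a passed, with 8 positive and 9 negative estimates.

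The lists that respond to stress and to tissue handling leaned one way. Of 29 immediate early genes 22 had negative estimates (median -0.31), and none passed after adjustment. An unadjusted p under 0.05 was found for 12 of them, beside 394 of all 4440 genes tested. Dnajb1, a heat shock co-chaperone gene, was at 148 and 80.4 CPM (log2 change -0.93, adjusted p = 0.113, edgeR). Of 13 glucocorticoid and metallothionein genes 11 had negative estimates (median -0.55), and none passed. Mt1, a metallothionein gene, was at 1074 ± 114 and 604 ± 243 CPM (-0.86 ± 0.21, adjusted p = 0.128, edgeR) and Klf9 at 555 and 389 CPM (-0.55, adjusted p = 0.121, edgeR). These lists had negative medians in endothelial cells and progenitors as well, and were not read in smooth muscle cells or B cells. The immediate early list had a median of -0.22 in endothelial cells and -0.37 in progenitors, where 3 genes passed. In the glucocorticoid list 7 of 18 genes passed as lower in endothelial cells and 5 of 18 in progenitors. Over all genes tested, 115 of 10297 passed as lower in endothelial cells and 65 of 11870 in progenitors. Genes encoded in the mitochondrial genome had a median of 0.10 in pericytes, with none of 12 passing, and 0.135 in progenitors, with none of 13 passing. In endothelial cells the median was 0.59 and 8 of 13 passed as higher, beside 99 of all 10297 genes tested. The feeding effect in pericytes was below that in endothelial cells for all 13 (median difference -0.52), and only the difference for mt-Atp8 passed.

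Among other classes of the same libraries, 214 of 10297 genes (2.08%) passed in endothelial cells and 101 of 11870 (0.851%) in progenitors, classes of 4878 and 6596 cells with more counts per gene, so these shares cannot be set against that of pericytes. The feeding effect itself was therefore tested for a difference between classes. It differed between pericytes and endothelial cells for 29 of 10391 genes (0.279%), with the pericyte effect more positive in 9 and more negative in 20. Between pericytes and progenitors it differed for 18 of 10949 genes (0.164%), 7 more positive and 11 more negative.

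The differences from endothelial cells were led by Ccl11 and by genes with a higher mean in TAN than in Ad-Lib endothelium. Id3 was at 692 and 557 CPM in pericytes and 667 and 1134 CPM in endothelial cells (difference of log2 changes -1.13 ± 0.15, adjusted p = 0.000296, edgeR interaction). Id1 was at 202 and 147 CPM in pericytes and 562 and 1079 CPM in endothelial cells (-1.48 ± 0.22, adjusted p = 0.000678, edgeR interaction). Id1 and Id3 encode inhibitors of DNA binding, which are targets of BMP signalling. Angptl4, an inhibitor of lipoprotein lipase, was at 96.7 and 47.2 CPM in pericytes and 111 and 152 CPM in endothelial cells (-1.68 ± 0.27, adjusted p = 0.00134, edgeR interaction). Slit3, a guidance ligand gene, was at 222 and 212 CPM in pericytes and 48.7 and 107 CPM in endothelial cells (-1.21 ± 0.20, adjusted p = 0.00229, edgeR interaction).

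Against progenitors the differences included Fabp4 and Cd36, whose level in Ad-Lib progenitors lay near that of B cells. Fabp4 was at 16800 and 19790 CPM in pericytes and 278 and 834 CPM in progenitors (difference of log2 changes -1.33 ± 0.14, adjusted p = 9.2e-06, edgeR interaction). Cd36, the fatty acid translocase gene, was at 820 and 943 CPM in pericytes and 15.1 and 49.9 CPM in progenitors (-1.47 ± 0.20, adjusted p = 0.000215, edgeR interaction). For both genes the pericyte level was far above that of progenitors in either group. Within progenitors both genes rose, with log2 changes of 1.55 ± 0.14 for Fabp4 and 1.67 ± 0.16 for Cd36 (adjusted p = 0.000369 each, edgeR). In B cells, the class used for free-RNA background, Fabp4 was at 276 ± 197 and 469 ± 66.0 CPM (log2 change 0.87 ± 0.36) and Cd36 at 15.0 ± 13.7 and 41.6 ± 11.9 CPM (0.66 ± 0.31), and neither passed (adjusted p = 0.999 each, edgeR). In CPM the TAN progenitors were thus above the B cells in Fabp4 and within the B-cell spread in Cd36. Fabp4 had a UMI in 59.25% of progenitors of both groups and in 31.7% of B cells. These 2 shares cannot be compared, because the classes differed in depth. The median was 10700 (Ad-Lib) and 10020 UMIs (TAN) in progenitors and 3685 and 3515 UMIs in B cells. The part of the background in these differences was not tested. S1pr3 went the other way, at 33.7 and 19.1 CPM in progenitors (1.69 ± 0.24, adjusted p = 0.000523, edgeR interaction). Cyp26b1, which degrades retinoic acid, was at 90.9 and 55.8 CPM in pericytes and 47.5 and 156 CPM in progenitors (-2.52 ± 0.37, adjusted p = 0.000627, edgeR interaction).

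**Figure D5:**
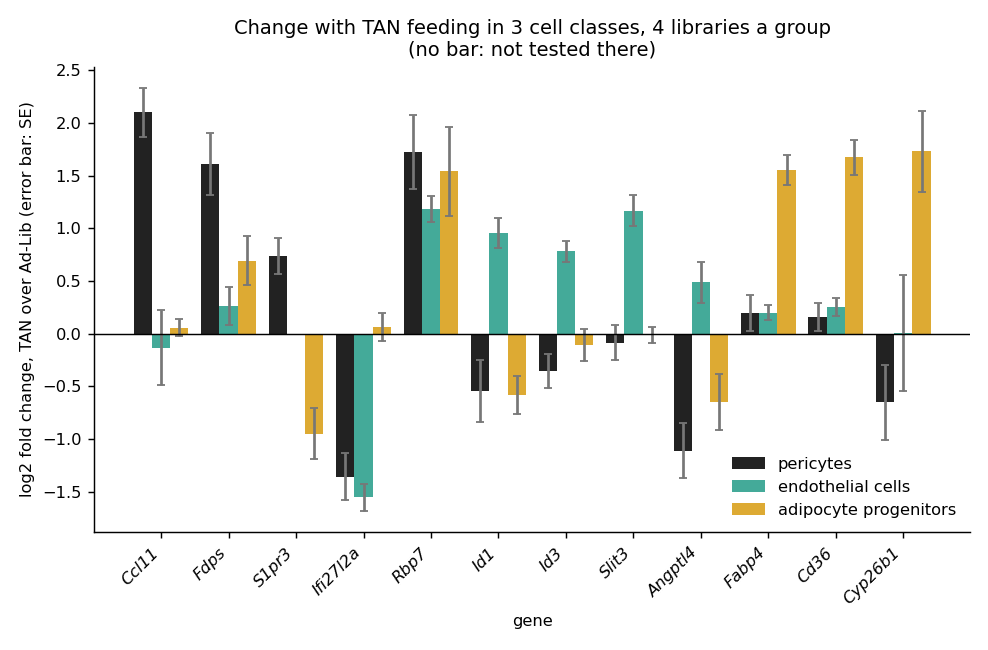
Log2 change of TAN over Ad-Lib with its SE in pericytes, endothelial cells and adipocyte progenitors for 12 genes, with no bar where a gene was not tested. Ccl11 stands at 2.10 in pericytes, 0.06 in progenitors and -0.13 in endothelial cells, whereas Ifi27l2a is at -1.36 in pericytes and -1.55 in endothelial cells.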

How the data were processed

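Inguinal fat stromal vascular fraction of 8 libraries, 4 Ad-Lib and 4 TAN by the labels, had been profiled by droplet capture. The authors deposited raw counts of UMIs per gene and called barcode, without normalization, made by Cell Ranger on mm10 (GRCm38) from exonic reads. The submitters' notes name version 3.0.2 and the file headers version 6.0.1. The tables list 32285 genes. Because 3′ tags give 1 count per transcript, CPM are not divided by gene length.

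The study's limits were used for keeping cells, namely 700 to 30000 UMIs, between 200 and 8000 detected genes, and up to 10% mitochondrial UMIs. Classes were then defined by UMI thresholds, without clustering. B cells had at least 2 Cd79a UMIs and a UMI of a further B cell gene. Endothelial cells had at least 2 Pecam1 UMIs and a Cdh5 UMI. Endothelial cells and adipocyte progenitors had a sum of at most 3 over the 4 pericyte genes. The members and gene lists were chosen with earlier results of these data known. The doublets were not removed, so droplets that hold a pericyte and a cell of a class without these exclusion genes stay in.

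UMIs were summed per library and class, and classes under 10 cells in a library were left out. Sums were tested with edgeR 4.0.16 (quasi-likelihood, TMM, default filter on low counts, R 4.3.3, limma 3.58.1) with Benjamini-Hochberg adjustment. A gene passed at an adjusted p under 0.05 and at least 1.5-fold. Class comparisons carried the library as a block, and the feeding comparison had none. In an interaction the feeding effect of 2 classes was compared in 1 fit. The 8 genes that chose the pericytes stayed in the fits and in counts over all genes, but were neither counted in the gene lists nor named as results. Acta2 and Cdh5, which helped to define smooth muscle and endothelial cells, stayed in the lists. Shares were compared with exact permutation tests over 70 assignments, using scipy 1.17.1. The scripts were tested on simulated data. Counting error alone sets the intervals and the limit of 3 counts, and summed pericyte depth per library limits which genes can be tested.

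Named genes were, for feeding, those passing without overlap, or the 10 smallest p where fewer than 10 passed. For class comparisons they were the 10 largest changes per direction (5 for endothelial cells and progenitors) at 50 CPM or more with 1 sign in every library. For interactions they were the 5 smallest p, against all other cells the 20 highest ratios, and among members the 15 highest variance ratios. Genes of the fixed lists could be named too. Of these lists Ccl19, Ccl21a and Ctgf were not matched to a gene of the tables. The genes named with Fdps and the split by Dcn were chosen after seeing the data. Some genes that met these rules are not reported here.

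Alternatives were DESeq2 1.42.0, its size factors, other marker and mitochondrial thresholds, no filter on low counts, thinned counts, no library block and leaving out each library. Added after seeing the data were a gate without Pecam1, Pdgfra and Ptprc, pericytes without Dcn (for feeding and against smooth muscle cells), and totals without Gm42418 and Malat1. Promoter windows came from RefSeq on GRCm38.p6, and gene coordinates from GENCODE M21.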

Additional observations from a re-analysis of the deposited data

Results flagged for a closer look

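Of 30 groups of 4 libraries examined, 3 held 1 library far from the others, and chance gives about 5% of groups. The median mitochondrial share of pericytes was 2.33% in TAN 4 and 3.75% to 3.81% in the other TAN libraries. Lgals3 was at 30.6 CPM in the pericytes of TAN 6 and at 6.36 to 7.23 CPM in the others. Cfd was at 546 CPM in Ad-Lib 5 and at 446 to 459 CPM in the other Ad-Lib libraries.

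The feeding effect differed between classes, by the edgeR interaction test, in the following genes. Against endothelial cells the difference of log2 changes was -1.13 for Id3, -1.48 for Id1, 2.33 for Ccl11, -1.68 for Angptl4 and -1.21 for Slit3. Against adipocyte progenitors it was -1.33 for Fabp4, 2.10 for Ccl11, -1.47 for Cd36, 1.69 for S1pr3 and -2.52 for Cyp26b1. For Fabp4 and Cd36 the Ad-Lib progenitors were at the level of B cells, which had 276 and 469 CPM of Fabp4 and 15.0 and 41.6 CPM of Cd36 in Ad-Lib and TAN libraries, while TAN progenitors had 834 and 49.9 CPM, and the part of this background was not tested. Ccl11 was the gene named in both comparisons.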

How the results depend on the processing

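The number of genes that passed between TAN and Ad-Lib pericytes, 6 in the main setting, was 2 with DESeq2 (Ccl11 and Ifi27l2a), 0 in pericytes without Myh11 (120 at an unadjusted p under 0.05, edgeR), 3 without pericytes holding UMIs of Cdh5, Cldn5, Dpp4, Pi16, Adipoq or Cd52, 10 in pericytes without Dcn and 112 without a filter on low counts (26 higher, 86 lower). Leaving out 1 library gave 1 to 9 (2 without Ad-Lib 1, 1 without Ad-Lib 5, 1 without Ad-Lib 7, 1 without TAN 2 and 3 without TAN 6). Ccl11 passed in 17 of 18 settings, with log2 changes of 1.88 to 2.46, Ifi27l2a in 12, Fdps in 8, Lgals3 in 7 and Cfd in 6, and Fdps and Lgals3 had too few counts to be tested in some of these. Without a filter on low counts the interactions numbered 94 with endothelial cells and 60 with progenitors, and leaving out 1 library gave 20 to 41 and 10 to 19. Against smooth muscle cells 1295 genes passed without that filter, and DESeq2 gave 272 higher and 400 lower, beside 344 and 336. Against endothelial cells DESeq2 gave 2320 higher and 2115 lower, beside 1739 and 1917, so the balance of directions turned. Against progenitors it gave 2070 and 2155, beside 1560 and 2069. Thinned to equal totals, 1756 genes passed against progenitors and 1854 against endothelial cells. With a mitochondrial limit of 20%, 7 genes passed between TAN and Ad-Lib pericytes (6 higher, 1 lower). The share of kept cells differed by -0.599 to -0.197 points and the count per 100 endothelial cells by -5.85 to -1.80 when 1 library was left out. With Pecam1, Pdgfra and Ptprc not used, these differences were -1.12 and -10.3 and that of the mural share 5.05 points. The first was -0.173 points with at least 2000 UMIs and -0.236 without Myh11 or among Ptprc-negative cells, and the second -2.09 and -2.02 with at least 2000 UMIs and without Myh11. None of these passed. The mural share differed by 7.17 to 13.9 points when 1 library was left out, with 13.9 without Ad-Lib 1. Among single named genes 0 reversed, 42 values no longer passed and 10 newly passed, beside 750 that kept their call. The cause of these changes was not tested.

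No paired analysis was possible because the groups share no replicate numbers. Without the library block, 694, 3676 and 3693 genes passed against smooth muscle cells, progenitors and endothelial cells. Few pericytes per library (42 to 119) limit the depth, genes with few counts were not tested, and Fdps and Lgals3 rest on under 100 cells each. Free RNA and doublets were not modelled.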
